A study of Mus musculus with 2 samples.

Results

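The genes described here are those of MHC class I presentation, interferon signalling and the JAK-STAT pathway. They were chosen by symbol alone: every probe set with exactly 1 platform gene symbol that starts with H2- or names an IRF, a STAT, an Ifit or Ifitm gene, an interferon receptor chain, B2m, a Tap, Tapbp or immunoproteasome gene, Isg15, a Janus kinase, Socs1 or Socs3. This gave 118 of the 45037 probe sets on the array and 65 of 18193 named genes. A further 16 matching probe sets carry several symbols, among them that of Isg15, and were not analysed here. The data are 1 array of cells exposed to doxycycline (dox) and 1 array of cells that were not, and the comparison addresses which genes differ in embryonic endothelium after a pulse of Mesp1, a transcription factor of early mesoderm.

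Both samples came from A2lox.Mesp1 mouse embryonic stem cells, of 129/Ola background, in which dox induces a Mesp1 transgene. The dox group received 250 ng/mL of dox starting on day 2 and, per the description of its sample, ending on day 4. The no dox group carried the same transgene and received none. Both were grown as embryoid bodies, aggregates of differentiating stem cells, and on day 5 the cells positive for Flk1 (encoded by Kdr) and Tie2 (encoded by Tek) were sorted. No dox-treated cells without the transgene are among the samples, so Mesp1 and dox itself cannot be told apart as sources of a difference.

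Interferons bind paired receptor chains whose Janus kinases phosphorylate STAT proteins. STATs, together with interferon regulatory factors (IRFs), then switch on target genes, and SOCS proteins damp the signal. The targets include antiviral proteins of the Ifit and Ifitm families and the genes that load peptides onto MHC class I, a heavy chain held on the cell surface by beta-2 microglobulin. Embryonic stem cells and early embryonic cells are known for low MHC class I and weak interferon responses, and many of these STATs also serve cytokines that act on stem, blood and endothelial cells.

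Each condition has 1 array, so the differences carry no replicate error and no p-value and compare these 2 samples only. Signals are linear intensities in arbitrary units, as deposited, and signals of different probe sets are not comparable with one another. A log2 difference is dox minus no dox of log2(signal + 16), and a fold is 2 to that power, which understates the change of dim genes. A gene is represented by its brightest probe set and counted as past the signal filter when 1 of its signals reaches the median of its array (127 with dox, 112 without). The mark for a difference of note is 2-fold, a log2 difference of 1. The pooled SD between probe sets of the same gene, 0.38 log2 units over 5173 genes, is the only error within these arrays and does not measure variation between cultures.

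Mesp1, the induced gene, had signals of 10977 with dox and 2433 without (4.49-fold higher), although whether its probe set reads the transgene was not tested. The genes of the sort were close, Kdr at 10733 and 10140 and Tek at 9277 and 8799. All 9 endothelial markers on a list written for this work passed the filter, and 8 of them lay within 2-fold. The remaining marker, Eng, named after its value was seen, was at 3922 with dox and 1626 without (2.40-fold higher). Of 9 blood markers past the filter 6 were 2-fold or more lower with dox (4 with a filter on both arrays) and 3 lay within 2-fold, and the summed signal of all 10 listed was 8374 with dox and 16949 without. Of 9 mesenchyme markers 7 were 2-fold or more higher (4 with a filter on both arrays), and their summed signal was 37646 with dox and 5634 without. Of 6 cardiomyocyte markers 5 passed the filter and all 5 were 2-fold or more higher (2 with a filter on both arrays), and the summed signal of the 6 was 6249 with dox and 1508 without. Of 7 markers of macrophages, cells known for MHC and interferon gene expression, only Csf1r passed the filter, at 207 with dox and 169 without. The summed signal of these 7 was 508 and 490.3, and Ptprc, the pan-leukocyte CD45, was at 1.80 and 15.9. Because signals of different probe sets are not comparable, these sums mostly follow the brightest probe sets of each list and do not measure the amount of a cell type. The part that the blood, mesenchyme and cardiomyocyte shifts play in the differences below was not tested. In such bulk samples fewer cells of a type and less RNA per cell cannot be told apart.

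Of the 65 genes, 36 passed the signal filter, and 35 of these lay within 2-fold. The exception was Ifngr2, the accessory chain of the interferon gamma receptor, which was 2.25-fold higher with dox, while none was 2-fold lower. Across all 11794 genes past the filter 5.69% were 2-fold or more higher and 2.06% were 2-fold or more lower. The members thus held 1 higher gene in 36 and none lower, few genes against which to read those shares. Their median log2 difference was 0.11, against 0.05 over all genes past the filter, and 22 of the 36 differences were above 0, against 6556 of 11794. Scaling both arrays to the same median signal moves the median of all genes to -0.13 and that of the members to -0.06, with 14 of 36 above 0, so small positive differences should be read relative to that shift. Under the same scaling the split of all genes past 2-fold was 529 higher and 402 lower, against 671 and 243 for the signals as deposited. In 28 of the 36 genes the direction was the same under each of the 6 gene-level alternatives that gave a value. The exceptions, all with differences between 0 and 0.17, were Ifnar1, Stat2, Irf5, Ifit1bl1, H2-D1, H2-T3, H2-Eb1 and H2-Eb2. The genes nearest the 2-fold mark were Ifngr2 on its far side (1.17), and Ifnar2 (0.89) and Ifitm3 (-0.79) on its near side.

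**Figure D1:**
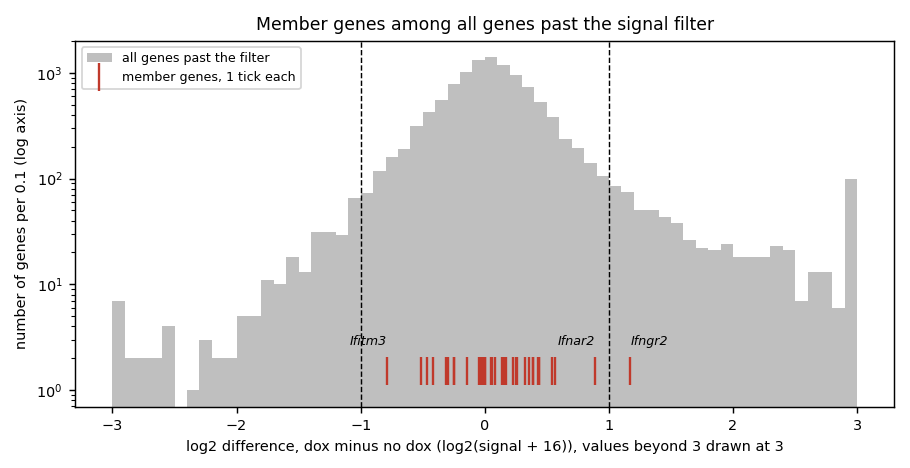
Log2 differences, dox minus no dox on the log2(signal + 16) scale, of all 11794 genes past the signal filter (grey histogram, log count axis, values beyond 3 drawn at 3) and of the 36 member genes past it (red ticks). Dashed lines mark 2-fold, and of the members Ifngr2 alone lies outside them.

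**Figure D2:**
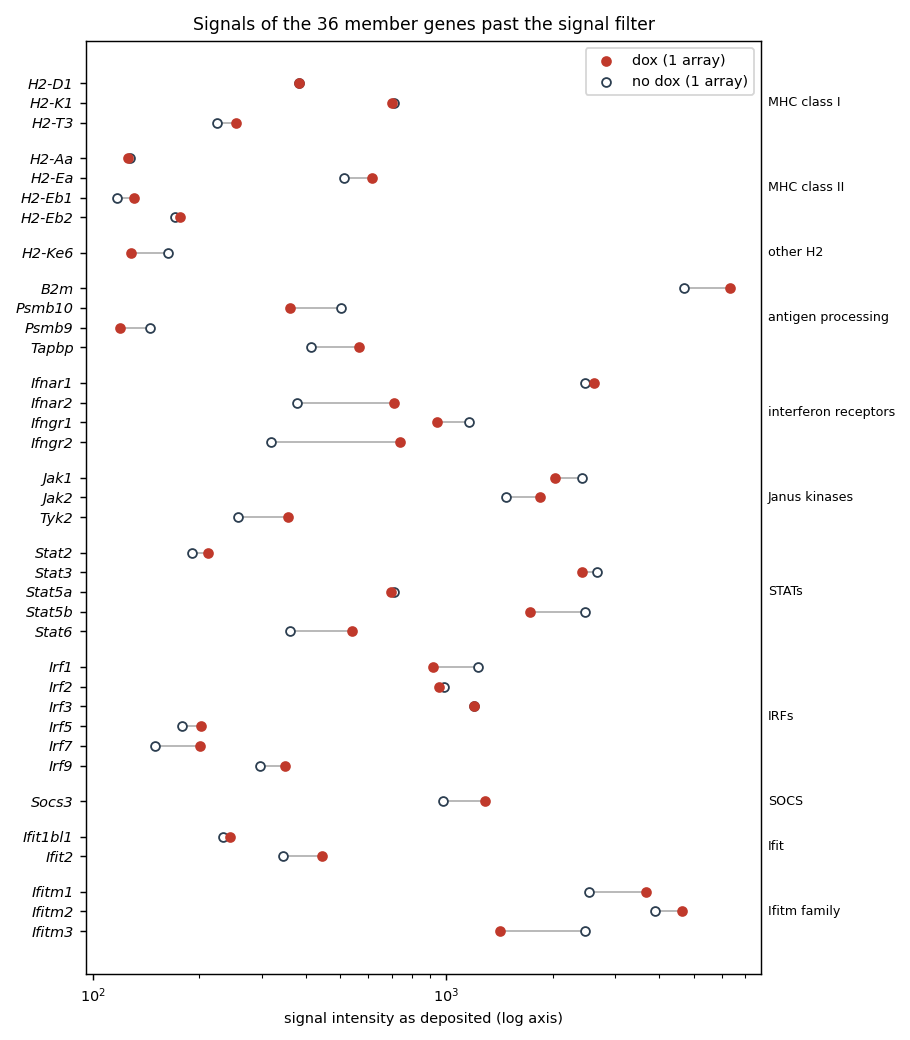
Deposited signal intensity (log axis) of each member gene past the filter, by its brightest probe set, with dox (filled, 1 array) and without dox (open, 1 array), grouped by role. Ifngr2, Ifnar2 and Ifitm3 have the widest gaps between the arrays, and points of H2-D1 and Irf3 lie on top of each other.

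Among the interferon receptors, the second chain of each receptor was higher with dox. Ifngr2, needed to bring its Janus kinase to the interferon gamma receptor, had a signal of 739 with dox and 319 without, a log2 difference of 1.17 that exceeded those of 95.5% of genes past the filter. Its other probe set was at 3.89 with dox and 1, the floor of the table, without, so the difference rests on 1 probe set. It was 0.995 when both arrays were scaled to the same median, just under the 2-fold mark. Ifngr1, the ligand-binding chain of the same receptor, was at 941 with dox and 1158 without, a log2 difference of -0.29. The chains of the gamma receptor thus lay on opposite sides of 0.

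Ifnar2, the high-affinity chain of the type I interferon receptor, had signals of 712 with dox and 378 without, 1.85-fold higher. Its other probe sets were also higher, 702 against 365 (0.91) and 263 against 185 (0.48). The name of the brightest ends in _x_at and those of the others in _a_at, and whether any of them cross-hybridises was not tested. Its partner Ifnar1 was at 2620 with dox and 2473 without (0.08), and its other probe set was at 559 and 457 (0.28). The receptor list had a median of 0.48. It was 0.08 in the setting that removes every probe set name ending in _s_at, _x_at or _a_at and so drops Ifnar2. The median was likewise 0.08 at a filter on the 75th percentile, which drops Ifnar2 too.

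Ifnar2, Ifnar1 and Ifngr2 lie close together on chromosome 16, with Il10rb, a chain of receptors for interleukin 10 and related cytokines, between the first and the second. In the RefSeq order of protein-coding genes (GRCm38.p6), the genes from Ifnar2 to Dnajc28 all had positive differences, although Ifnar1 did not under scaling to the same median. Il10rb was at 970 with dox and 759 without (0.35), Tmem50b at 2878 and 2009 (0.52) and Dnajc28 at 540 and 403 (0.41). The next gene, Gart, an enzyme of purine synthesis, was at 3546 and 5194 (-0.55). On the other side Olig1 and Olig2 lay below the filter, and 4932438H23Rik beyond them was at 134 with dox and 56.5 without (1.05), past the filter on the dox array only. Ifngr1, the receptor chain with a negative difference, lies on chromosome 10.

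The sequences before the start of these 3 neighbouring receptor genes are shown because the genes share a stretch of chromosome and differ in size of difference. They are 250 bases upstream of the RefSeq start in GRCm38.p6, 5′ to 3′ on the gene's strand. Capitals mark a match, on either strand, to the interferon-stimulated response element (ISRE) written as GAAA, any 2 bases and GAAA again, or to the gamma-activated site (GAS), the palindromic STAT element, written as TTCNNNGAA.
Ifnar2, chr16:91372533-91372782, plus strand: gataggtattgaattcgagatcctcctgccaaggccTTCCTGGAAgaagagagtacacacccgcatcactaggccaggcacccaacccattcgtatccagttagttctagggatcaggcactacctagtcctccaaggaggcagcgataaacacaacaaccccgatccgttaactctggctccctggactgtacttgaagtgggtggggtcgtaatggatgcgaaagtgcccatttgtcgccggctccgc
Ifnar1, chr16:91484965-91485214, plus strand: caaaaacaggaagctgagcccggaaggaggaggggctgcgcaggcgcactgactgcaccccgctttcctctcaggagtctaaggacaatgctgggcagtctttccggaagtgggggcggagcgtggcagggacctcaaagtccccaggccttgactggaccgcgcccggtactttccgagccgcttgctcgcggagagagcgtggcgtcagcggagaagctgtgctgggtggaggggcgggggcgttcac
Ifngr2, chr16:91546809-91547058, plus strand: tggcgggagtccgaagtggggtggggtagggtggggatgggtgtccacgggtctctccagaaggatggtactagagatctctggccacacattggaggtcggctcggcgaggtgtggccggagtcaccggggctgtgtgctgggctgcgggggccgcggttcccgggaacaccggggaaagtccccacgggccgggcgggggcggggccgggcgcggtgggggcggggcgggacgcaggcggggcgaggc
A GAS match begins 214 bases before the start of Ifnar2. The windows of Ifnar1 and Ifngr2 hold neither set of letters, which says nothing of factors that may act elsewhere.

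**Figure D3:**
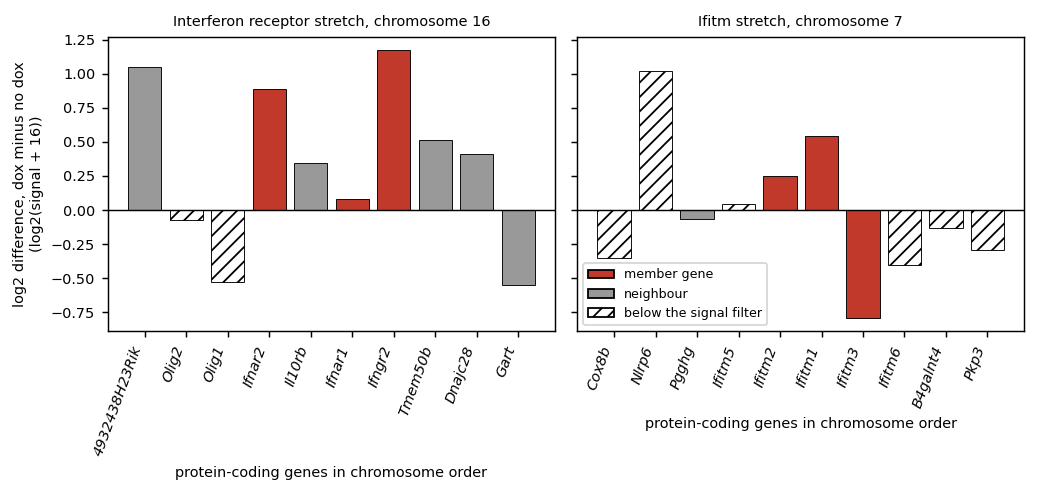
Log2 differences, dox minus no dox on the log2(signal + 16) scale, of protein-coding genes in RefSeq order around the interferon receptor genes of chromosome 16 and the Ifitm genes of chromosome 7. Red bars are member genes, grey bars neighbours, and hatched bars lie below the signal filter. Ifnar2 and Ifngr2 stand at 0.89 and 1.17 with Ifnar1 between them at 0.08, and Ifitm1 and Ifitm3 point in opposite directions.

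The Janus kinases, which sit on the receptor tails, were within 0.5 of 0. Jak1, shared by both kinds of interferon receptor, had signals of 2031 with dox and 2419 without (-0.25), and its 3 probe sets ranged from -0.32 to -0.22. Jak2, the kinase on Ifngr2 and on the erythropoietin receptor, was at 1843 with dox and 1472 without (0.32), with 0.09 by its other probe set. Tyk2, the kinase on Ifnar1, was at 355 and 258 (0.44), but its other probe set, at 121 and 123, gave -0.02. Each of these differences was near to or below the spread of 0.38 between probe sets of a gene.

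Of 6 STAT genes measured, 5 passed the filter, none differed 2-fold, and their median was -0.03. Stat5b, which transmits growth hormone and several blood cytokines, was at 1719 with dox and 2465 without, 1.43-fold lower. The other probe set of Stat5b lay below the filter at 37.2 and 66.7. Its close relative Stat5a was at 695 and 709 (-0.03), and its other probe set, also below the filter, was at 84 and 109 (-0.33). Stat6, the STAT of interleukin 4, was at 542 with dox and 362 without, 1.48-fold higher, while its other probe set, at 168 and 157, gave 0.08.

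Stat3, the STAT of LIF and the interleukin 6 family, was at 2416 with dox and 2668 without (-0.14). Its other probe sets past the filter were lower by more, 1005 against 1551 (-0.62) and 197 against 253 (-0.33). All 3 thus lay below 0 but spanned a range larger than the pooled probe set SD. Stat2, the partner of Irf9 in the type I interferon complex, was at 212 with dox and 190 without (0.15) and at 156 and 123 (0.31) by its other probe set. Stat4 lay below the filter, at 24.2 and 27.7.

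**Figure D4:**
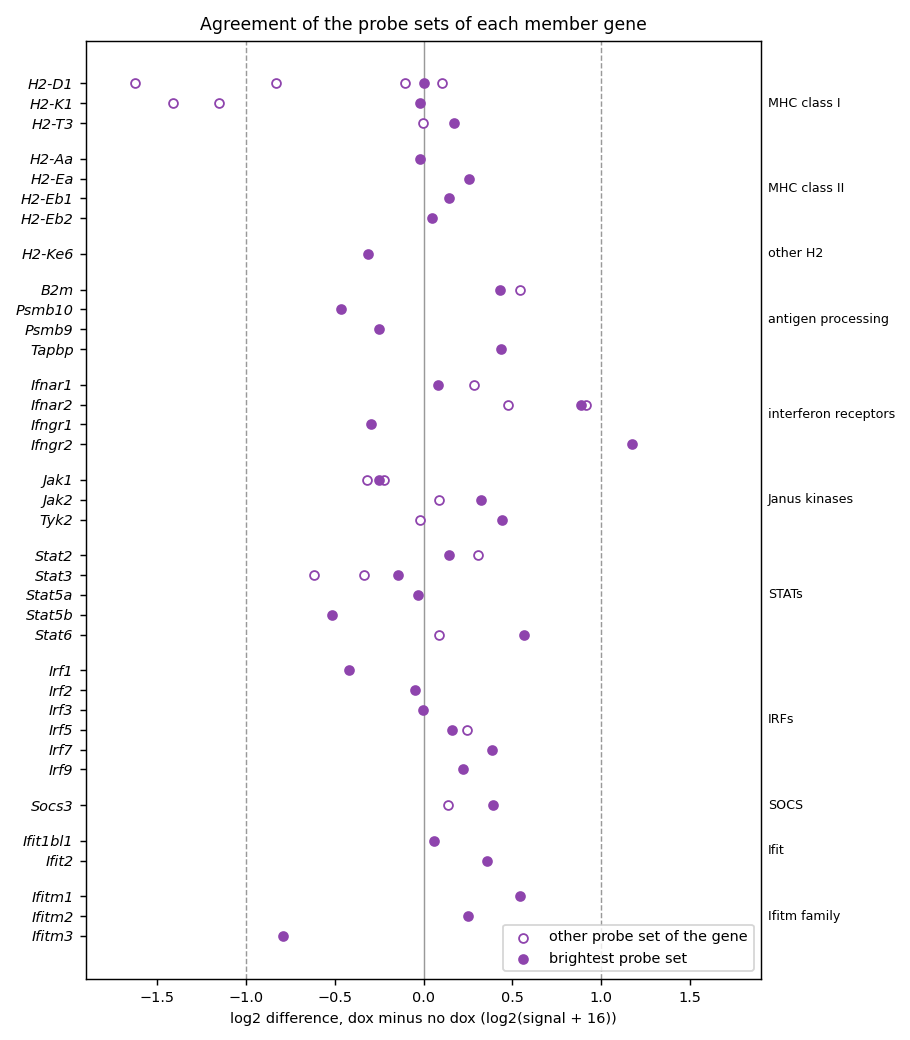
Log2 differences, dox minus no dox on the log2(signal + 16) scale, of each of the 57 member probe sets past the filter, 1 row per gene, with the brightest probe set filled and the others open. Dashed lines mark 2-fold. The probe sets of H2-D1 and H2-K1 spread most, down to -1.63 and -1.41, while those of B2m and Jak1 lie close together.

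The IRFs were measured for 8 genes, of which 6 passed the filter, with a median of 0.08 and none 2-fold different. Irf1, an early target of interferon gamma that activates MHC class I genes, was at 916 with dox and 1229 without, 1.34-fold lower. Irf2, which binds the same sites, was at 951 and 985 (-0.05). Irf3, which switches on interferon genes after virus is sensed, was at 1198 on both arrays, and its 3 other probe sets lay below the filter. Irf7, its inducible relative, was at 200.1 with dox and 150 without (0.38). Irf9, the DNA-binding part of the type I complex, was at 349.8 and 297 (0.22), and Irf5 at 202 and 179 (0.16). Irf4 and Irf8, factors of leukocytes, lay below the filter with signals of at most 73.3 with dox and 87.5 without.

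A promoter window of Irf1 is shown because this gene had the lowest difference of the IRFs. The window was picked for its GAS match, and any window of another Irf1 start without a match is not shown.
Irf1, chr11:53769764-53770013, plus strand: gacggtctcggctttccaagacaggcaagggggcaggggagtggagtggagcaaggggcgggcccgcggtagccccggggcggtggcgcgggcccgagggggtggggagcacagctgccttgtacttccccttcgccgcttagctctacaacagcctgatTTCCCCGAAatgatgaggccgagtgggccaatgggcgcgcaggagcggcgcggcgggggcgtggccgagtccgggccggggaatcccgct
The match begins 90 bases before the start. Irf2 and Socs3, whose promoters also hold GAS matches, differed by -0.05 and 0.39. Socs3, an inhibitor induced by STAT3, was at 1284 with dox and 975 without, and its other probe set past the filter, at 704 and 639, gave 0.14. Another probe set of Socs3, below the filter, was at 88.2 and 106. Socs1, the main inhibitor of interferon receptors, lay below the filter at 29.1 and 37.8.

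The Ifit genes, antiviral proteins that bind foreign RNA and rank among the usual targets of type I interferon, were dim or little different. Ifit2 was at 445 with dox and 344 without, 1.28-fold higher. Ifit1bl1 was at 244 and 234 (0.06). Ifit1, Ifit3 and Ifit1bl2 lay below the filter, with signals of 15.2, 29.5 and 120.5 with dox, against 22.4, 56.5 and 97.3 without. Ifit1 and Ifit3 were thus lower, and Ifit1bl2 higher, with dox by signals too dim to be called.

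Of the Ifitm genes, membrane proteins that hinder virus entry and of which mouse Ifitm1 and Ifitm3 also mark early germ cells, 3 of 7 passed the filter. They did not go together. Ifitm1 was at 3678 with dox and 2524 without, 1.45-fold higher. Ifitm2 was at 4630 and 3889 (0.25). Ifitm3 was at 1419 with dox and 2468 without, 1.73-fold lower, and only 3.79% of genes past the filter had a difference as low or lower. These directions held under quantile normalization, scaling to the same median and both other pseudocounts, and Ifitm3 was then between -0.97 and -0.77. Each of these genes has 1 probe set, so no second reading was at hand. Ifitm5, Ifitm6, Ifitm7 and Ifitm10 lay below the filter, with signals of at most 64.2 with dox and 73.2 without.

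Ifitm2, Ifitm1 and Ifitm3 follow one another on chromosome 7, and their upstream sequences are shown because neighbours with related products had differences of opposite sign.
Ifitm1, chr7:140967826-140968075, plus strand: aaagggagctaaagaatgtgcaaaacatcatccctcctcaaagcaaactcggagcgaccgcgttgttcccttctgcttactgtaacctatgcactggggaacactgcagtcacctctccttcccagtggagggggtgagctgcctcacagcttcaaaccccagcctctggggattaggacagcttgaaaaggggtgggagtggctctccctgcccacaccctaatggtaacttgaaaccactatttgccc
Ifitm2, chr7:140955962-140956211, minus strand: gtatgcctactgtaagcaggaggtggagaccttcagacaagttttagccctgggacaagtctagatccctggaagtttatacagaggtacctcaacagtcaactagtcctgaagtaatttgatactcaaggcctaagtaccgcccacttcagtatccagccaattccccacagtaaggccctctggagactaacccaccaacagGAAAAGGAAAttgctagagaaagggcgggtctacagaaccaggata
Ifitm3, chr7:141010745-141010994, minus strand: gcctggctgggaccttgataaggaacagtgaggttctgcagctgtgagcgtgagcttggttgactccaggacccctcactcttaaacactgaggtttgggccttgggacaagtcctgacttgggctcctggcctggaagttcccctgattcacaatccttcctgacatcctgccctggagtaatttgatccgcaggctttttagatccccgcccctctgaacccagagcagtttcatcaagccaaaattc
Only the window of Ifitm2 holds a match, an ISRE that begins 46 bases before the start. Pgghg, the closest neighbour past the filter in the order of genes, was at 484 with dox and 508 without (-0.07).

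MHC class I was represented by B2m at high signal on its own probe sets and by heavy chains whose probe sets disagreed. B2m, the light chain common to all class I molecules, was at 6352 with dox and 4711 without, 1.35-fold higher, and its other probe set was at 4502 and 3086 (0.54). Both probe sets lay on the same side and close together, although the difference was 0.25 when the arrays were scaled to the same median. The B2m promoter is shown because it is the one among the class I and peptide-processing genes past the filter that holds an ISRE match, which begins 139 bases before the start.
B2m, chr2:122147437-122147686, plus strand: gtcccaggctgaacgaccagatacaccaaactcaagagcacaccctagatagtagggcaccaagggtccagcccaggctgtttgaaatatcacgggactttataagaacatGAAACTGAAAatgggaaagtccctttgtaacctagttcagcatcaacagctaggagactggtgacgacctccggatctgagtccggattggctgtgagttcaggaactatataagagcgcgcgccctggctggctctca

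Of 11 heavy chain genes only H2-K1, H2-D1 and H2-T3 passed the filter, with a median of 0.00025. H2-K1 and H2-D1 encode the classical chains that present peptide to CD8 T cells. The brightest probe set of H2-K1 was at 703 with dox and 712 without (-0.02). Its other probe sets past the filter were lower with dox, at 357 against 975 (-1.41) and at 125 against 296 (-1.15). The brightest probe set of H2-D1 was at 383 on both arrays, and the others past the filter gave differences of -1.63, -0.83, -0.10 and 0.11. The probe set at -1.63 had signals of 25.7 with dox and 113 without, next to the filter. H2-T3, a non-classical chain, was at 253 with dox and 224 without (0.17) and at 201.4 and 202 (-0.0036) by its other probe set.

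The 3 member probe sets that were 2-fold or more lower with dox all belong to H2-K1 and H2-D1, and 2 of them passed the filter only through the no dox array, where they were brighter. All 3 have names ending in _x_at, which marks probes shared with other transcripts, but so do the brightest probe sets of both genes, which lay near 0. The probe set of H2-D1 at -0.83, with signals of 94.7 with dox and 181 without, has no such ending. It too passed the filter only through the no dox array. Over all named probe sets past the filter 2.12% were 2-fold or more lower and 5.59% higher, and among the 57 of the members 3 were lower and 1 higher, counts from which nothing is read because the filter helped to pick the lower ones. When each gene was given the mean of its probe sets past the filter, H2-K1 was at -0.86, H2-D1 at -0.49, and the median of the heavy chains at -0.49. These means include the probe sets that passed only through the no dox array, so nothing is read from them either. H2 genes are highly alike and vary between mouse strains, and how well each probe set matches the alleles of 129/Ola cells was not tested. The remaining 8 heavy chain genes lay below the filter. H2-M3, a chain that presents bacterial formyl peptides, was at 62 on both arrays by rounding (log2 difference -0.0013), and H2-M9 was at 18.6 with dox and at the floor of 1 without.

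The genes that prepare and load peptides were uneven. Tapbp encodes tapasin, the chaperone that holds class I at the peptide transporter. It was at 567 with dox and 415 without, 1.35-fold higher, in the same direction as B2m. Of the immunoproteasome subunits, Psmb10 was at 360.3 with dox and 503 without (-0.46), and Psmb9 at 120 and 145 (-0.25). Psmb9 passed the filter only through the no dox array, where it was brighter. Its difference was also smaller than the pooled probe set SD. Each of these subunits has 1 probe set, so nothing is read about the immunoproteasome as a class. The brightest probe set of Psmb8, the remaining such subunit, lay below the filter at 16.5 and 43.2, and its other at 25.6 and 18.7 went the other way. The transporter genes Tap1 and Tap2 lay below the filter as well. Tap1 was at 114 with dox and 57.02 without by its brightest probe set, and its 4 probe sets ranged from -0.78 to 0.83. Psmb8, Psmb9, Tap1 and Tap2 lie near one another in the MHC on chromosome 17, where 28 of the 65 genes are located.

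MHC class II genes, which are typical of antigen-presenting leukocytes, had 4 of 9 members past the filter and a median of 0.09. H2-Ea was at 615 with dox and 512 without (0.26). H2-Aa was at 125 and 127 (-0.02), H2-Eb1 at 131 and 117 (0.14) and H2-Eb2 at 177 and 170.5 (0.05), all of them close to the array medians. The other probe sets of H2-Ea gave 124 against 98.2 and 1 against 2.85, both below the filter. H2-Ke6, an enzyme of the hydroxysteroid dehydrogenase type encoded in the same region, was at 128 with dox and 163 without (-0.32).

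All 29 members below the filter had signals of at most 120.5 with dox and 97.3 without by their brightest probe sets. Their log2 differences ran from -0.87 to 1.02, with 22 of them under 0.5 in size, and such dim values carry no order. Among the 14 members with more than 1 probe set past the filter, all probe sets of a gene had the same sign in 11. The pooled SD between probe sets was 0.43 for these 14 genes, against 0.38 over all genes.

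Promoters were at hand for 57 of the 65 members, in 71 windows because some genes have several starts. An ISRE match was found in 11 windows (15.5%), against 2.98% of all 32851 promoter windows of the same length. A GAS match was found in 10 windows (14.1%), against 7.02% of all. The windows of Ifit1 and Ifit1bl2 overlap on opposite strands and share their matches, and the pair of ISRE matches in Socs1 overlap one another. Among members past the filter the 5 genes with an ISRE match were B2m, Stat2, Irf2, Ifit1bl1 and Ifitm2, with log2 differences from -0.05 to 0.43 and a median of 0.15. The 5 with a GAS match were Ifnar2, Irf1, Irf2, Socs3 and Ifit2, with differences from -0.42 to 0.89 and a median of 0.36. The members with these letters thus lay within 2-fold, on both sides of 0. A match is a stretch of letters and not a measured binding site.

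Genes of the same pathway outside the member rule were read from 4 lists. Of 41 other interferon-stimulated genes measured, 20 were past the filter, with a median of -0.03. Of these, 3 passed 2-fold, all of them higher with dox (2 with a filter on both arrays). Over all genes 5.69% were 2-fold or more higher and 2.06% lower (3.82% and 1.54% with a filter on both arrays). Gbp6, an interferon-induced GTPase, was at 577 with dox and 46.5 without, 9.49-fold higher, with log2 differences of 3.25 and 3.48 by its 2 probe sets past the filter. The signal of Gbp6 without dox is below the array median. Its brighter dox signal alone thus kept it in the count, and a filter on both arrays drops it. The fold also depends on the pseudocount, and the log2 difference was 2.54 with a pseudocount of 64. Guanylate-binding proteins resemble one another, and what else these probe sets detect was not tested. Ly6e, a lipid-anchored surface protein, was at 512 with dox and 142 without (3.34-fold) by its 1 probe set past the filter. The name of that probe set ends in _s_at, and what else it detects was not tested. Without names ending in _s_at, _x_at or _a_at, which drops Ly6e, 2 genes of the list were 2-fold or more higher. Ifi35 was at 580 and 233 (2.39-fold), and its 3 probe sets ranged from 0.70 to 1.26, with a mean of 0.996, just under 2-fold. With the filter at the 75th percentile none of these 3 genes was retained, and the count of 2-fold genes on the list was 0. Among the genes with negative differences, Rsad2, an antiviral enzyme, was at 306 with dox and 466 without (-0.58). The other probe set of Rsad2 past the filter gave -0.19. Trim25 was at 4268 and 5567 (-0.38) and Ifi27 at 5919 and 7540 (-0.35). Mx1, Mx2, Oas1a, Oasl2, Usp18 and Zbp1 lay below the filter. So did Cxcl10, at 102 with dox and 23.15 without (1.59), and Gbp2, at 113 and 43.9 (1.10), signals too dim to be called. With no filter none on this list was 2-fold or more lower. Rsad2 and the genes named as below the filter were picked after their values were seen.

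Peptide loading and class I activators outside the rule had 15 of 16 measured genes past the filter, none 2-fold different, and a median of -0.12. Canx and Pdia3, the endoplasmic reticulum proteins that fold heavy chains, were at 11508 and 8081 with dox and at 11893 and 7689 without (-0.05 and 0.07), although the 3 probe sets of Canx ranged from -0.74 to -0.05. The constitutive proteasome subunits Psmb5, Psmb6 and Psmb7 were at -0.18, -0.16 and -0.16, all smaller in size than Psmb10. No comparison is made with Psmb9, which passed the filter only through the no dox array. Nlrc5, the activator of class I genes, lay below the filter at 24.5 and 18.2. Nlrc5 and the constitutive subunits were picked after their values were seen.

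Of 22 cytokine receptors and JAK-STAT regulators past the filter none differed 2-fold, and the median was 0.0028. Ptpn11, a phosphatase of receptor signalling, was at 5792 with dox and 5577 without (0.05), and its 3 probe sets past the filter ranged from -0.40 to 0.27. Lifr, the LIF receptor, was at 5564 and 5842 (-0.07), and at -0.76 by its other probe set past the filter. The STAT5 target Cish, named after its value was seen, was at 893 and 539 (0.71). Of 5 interferon-inducing genes past the filter none differed 2-fold. The kinase Tbk1 was at 5386 with dox and 4886 without (0.14), and Mavs, the adaptor of RNA sensors, at 760 and 951 (-0.32). Tlr3, a sensor of double-stranded RNA named after its value was seen, was at 312 and 595 (-0.90), with -0.71 by its other probe set. The interferon genes Ifnb1 and Ifng, also picked after the fact, lay below the filter, at 45 and 64.8 with dox, against 37.2 and 54.8 without.

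**Figure D5:**
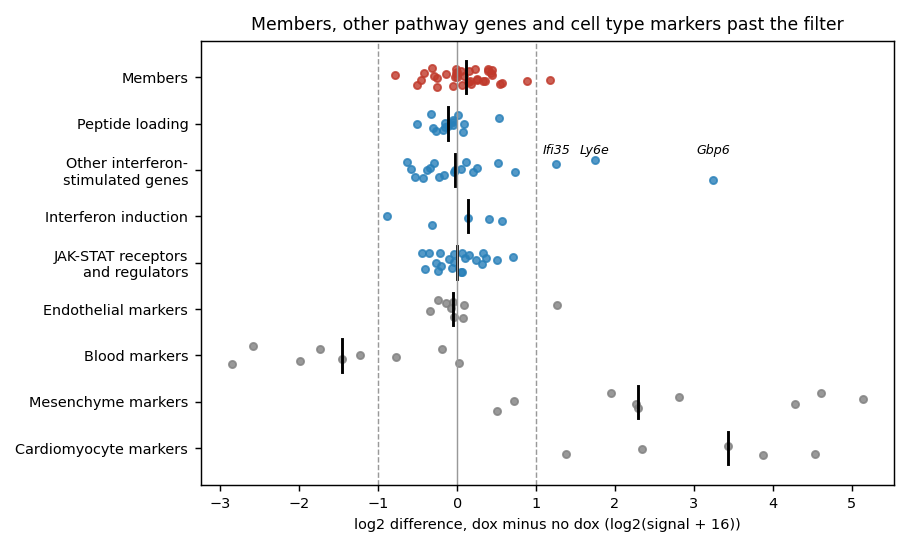
Log2 differences, dox minus no dox on the log2(signal + 16) scale, of the 36 member genes past the filter (red), of 4 lists of other pathway genes (blue) and of endothelial, blood, mesenchyme and cardiomyocyte markers (grey), 1 point per gene past the filter, with black bars at the medians and dashed lines at 2-fold. Medians of members and pathway lists lie between -0.12 and 0.14, while blood markers have a median of -1.47, mesenchyme markers one of 2.29 and cardiomyocyte markers one of 3.43.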

How the data were processed

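RNA from 2 samples, 1 per condition, was hybridised to Affymetrix arrays after amplification from 100 ng of total RNA each, per the labels' protocols. The authors deposited 1 linear intensity per probe set and array. Their summarisation and scaling are not given in the sources used. The lowest value is 1 in both columns, shared by 1102 probe sets with dox and 1165 without, and no detection calls were used. Precision is limited by the number of arrays.

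Names came from the platform annotation: 34945 had 1 symbol, 932 several and 9160 none listed. All 65 member genes were found by Entrez number in RefSeq (GRCm38.p6). Differences, lists and the alternatives (pseudocount, scaling, filter, choice of probe set) were computed with Python 3.11.15, numpy 2.4.6 and pandas 2.3.3, and the procedure was tested on simulated data. Promoters are RefSeq's. A value under an alternative is called moved when it shifts by more than the probe set SD of 0.38. Genes past the filter could be named, by role, and any other pathway gene if it passed 2-fold or was among the 2 brightest of its list. The members and lists were chosen with earlier results of these data known.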

Additional observations from a re-analysis of the deposited data

How the results depend on the processing

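Of 203 values of member genes under 6 alternatives, 200 shifted by less than the probe set SD of 0.38. Many of these could hardly shift by more. Scaling to the same median moves all bright genes by nearly the same small amount. A gene with 1 probe set past the filter keeps its value under the mean of probe sets. The count is therefore no measure of how firm the differences are. H2-D1 shifted by more, to -0.49 with the mean of probe sets past the filter and to -0.83 without names ending in _s_at, _x_at or _a_at. H2-K1 did so too, at -0.86 with that mean. The count of members 2-fold or more higher, 1 as reported, was 0 with the arrays scaled to the same median, where Ifngr2 was at 0.995, and 2 with no filter, which added H2-M9. The median of the class I heavy chains was -0.49 with the mean of probe sets past the filter. That of the interferon receptors was 0.0825 both without names ending in _s_at, _x_at or _a_at and with the filter at the 75th percentile. The other 100 of 103 list medians under 9 alternatives shifted by less than 0.38. Alternatives for the other lists were chosen after seeing the data. Of other interferon-stimulated genes 5 were 2-fold higher with no filter and 0 with the filter at the 75th percentile, 1 interferon-inducing gene was 2-fold lower with the arrays scaled to the same median, and 4 mesenchyme and 2 cardiomyocyte markers were 2-fold higher with a filter on both arrays, as were 2 cardiomyocyte markers with the filter at the 75th percentile. Over all genes, 350 were higher and 135 lower with the filter at the 75th percentile, 417 and 168 with a filter on both arrays, 529 and 402 with scaling to the same median, and 867 and 372 with no filter. The causes of these shifts were not tested, apart from the genes each setting adds or drops. No replicate could be left out, and no paired analysis was possible because each group has 1 array. Signal over background could not be judged without detection calls.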
